A study of Mus with 21 samples.

Results

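The genes described here are 10 members of the transforming growth factor beta (TGF-beta) pathway, taken by symbol from the count tables of the 18806 genes measured in mouse skin wounds. They are the ligands Tgfb1, Tgfb2 and Tgfb3, the activin subunit gene Inhba, the receptors Tgfbr1 and Tgfbr2, the intracellular mediators Smad3 and Smad7, and the target genes Ccn2 and Klf10. Ccn2 is the symbol the tables use for Ctgf. RNA-seq was performed on Day 4 wounds of WT female C57BL/6 mice, with 3 libraries labelled as biological replicates in each of 7 groups. The paper assigned 3 mice to each group, and the labels do not say whether each library came from a different mouse. Every mouse had 8 mm circular full-thickness wounds on the dorsal skin, which were splinted and covered with a transparent dressing. The 6 hydrogel groups received a GelMA (gelatin methacryloyl) scaffold of pH 6.4, 7.4 or 8.4, loaded with acidic or basic fibroblast growth factor (aFGF or bFGF), and are named 6.4/aFGF to 8.4/bFGF. The control wounds had no scaffold. No group received a scaffold without a growth factor, so the parts of the hydrogel and of the growth factor cannot be told apart in any comparison with control.

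TGF-beta ligands are secreted in a latent form bound to the matrix, and after activation they bind the type II receptor, which recruits and phosphorylates the type I receptor. The type I receptor phosphorylates Smad2 and Smad3, which enter the nucleus with Smad4 and regulate targets such as Ccn2, Klf10 and the inhibitor Smad7, which feeds back on the receptor. Activin A, a dimer of the Inhba product, signals through its own receptors to the same Smads. In skin wounds this pathway is known for its role in granulation tissue formation, the fibroblast to myofibroblast transition, matrix deposition and scarring.

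The libraries were of even depth, with 34362558 to 37817833 counted reads, and every member had at least 368 counts in every library (the lowest was Smad7 in control replicate 1), so counting error was small beside the spread between replicate libraries. The tissue label held: fibroblast and keratinocyte genes were abundant in all libraries, with summed levels of 22570 to 48730 CPM for 7 fibroblast genes and 1810 to 5218 CPM for 7 keratinocyte genes (CPM, counts scaled by TMM to the library size). Several libraries stood apart. Control replicate 2 was less like the other controls (mean r of 0.935 with its group), and 7.4/bFGF replicate 3 was less like its own group (0.937). Against all other libraries, control replicate 2 had a median r of 0.9601. Control replicates 1 and 3 had the lowest median r of the 21 libraries (0.9475 and 0.9454). T and NK cell genes summed to 269.7 CPM in 7.4/aFGF replicate 1 and to at most 102.7 CPM elsewhere (7 genes). Single libraries of 7.4/aFGF (replicate 3), 8.4/aFGF (replicate 2) and 8.4/bFGF (replicate 2) carried cartilage, liver or ovary and oviduct transcripts. Skeletal muscle genes ranged from 248.3 to 16420 CPM in sum. The wounds are mixed tissue, so fewer cells of a type and less RNA per cell cannot be told apart for any gene below.

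All 10 members were expressed in every library. On the length-corrected scale (FPKM as deposited by the authors, mean ± SD over the 21 libraries), the type II receptor Tgfbr2 was the highest of the 10 at 109.7 ± 22.1 FPKM, followed by Tgfb1 at 78.1 ± 11.1 FPKM and Ccn2 at 41.9 ± 17.1 FPKM. The others were at lower levels, with Klf10 at 13.5 ± 3.36, Tgfbr1 at 10.6 ± 1.26, Inhba at 9.79 ± 7.07, Tgfb3 at 8.49 ± 2.65, Smad3 at 7.44 ± 1.08, Smad7 at 5.32 ± 1.65 and Tgfb2 at 3.17 ± 0.786 FPKM. Among the 3 TGF-beta isoforms, Tgfb1 therefore made up most of the transcript, and the type II receptor exceeded the type I receptor. The spread between libraries of one group differed among the members. The within-group SD of log2 CPM was 1.14 for Inhba, which lay at the 94.2 percentile of all genes tested, 0.54 for Smad7 and 0.46 for Ccn2. It was 0.15 for Tgfbr1 and 0.22 for Klf10, against a median of 0.29 over all genes tested.

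**Figure D1:**
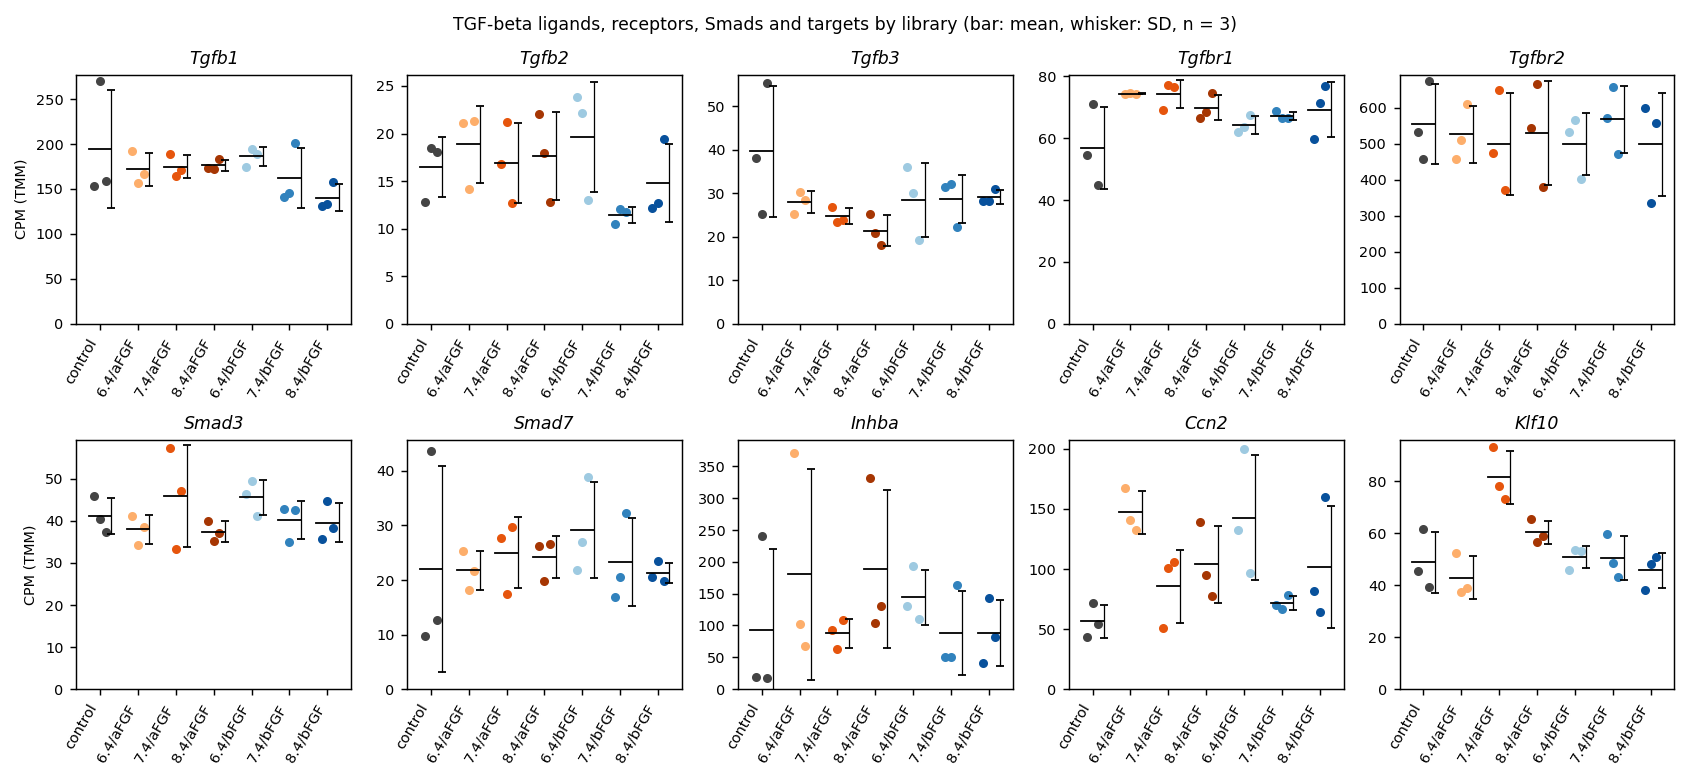
CPM (TMM-scaled, linear axes from 0) of the 10 members in each of the 21 libraries by group, with the group mean as a bar and the SD as a whisker (n = 3, whiskers end at 0 where they would pass it). Control replicate 2 lies far above the other 2 controls for Inhba and Smad7, and Klf10 is highest in the 3 libraries of 7.4/aFGF. The group mean of Ccn2 is lowest in control, whose libraries overlap those of hydrogel groups.

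Tgfb1, the main isoform released by platelets and macrophages after injury, varied little. Its level was 153.2, 270.1 and 159.2 CPM in the controls and 130.8 to 200.8 CPM in the 18 hydrogel libraries (median 171.7). Control replicate 2 was the highest library and the other controls lay inside the hydrogel range. By group, Tgfb1 ran from 194.2 ± 65.8 CPM in control and 186.1 ± 10.0 CPM in 6.4/bFGF down to 140.5 ± 14.7 CPM in 8.4/bFGF, and each group overlapped the next in that order.

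Tgfb2, an isoform known from keratinocytes and developing tissues, was measured at 10.48 to 23.80 CPM. It was 12.80, 18.47 and 18.10 CPM in control, 21.09, 14.21 and 21.34 CPM in 6.4/aFGF, 16.81, 21.19 and 12.73 CPM in 7.4/aFGF, and 22.10, 17.90 and 12.83 CPM in 8.4/aFGF. With bFGF it was 23.80, 22.12 and 13.01 CPM at pH 6.4, 10.48, 12.05 and 11.78 CPM at pH 7.4, and 12.21, 12.71 and 19.47 CPM at pH 8.4. The 3 libraries of 7.4/bFGF were the lowest of all 21 and overlapped no other group, while the other 6 groups overlapped each other.

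Tgfb3, the isoform linked to reduced scarring in skin, was 38.13, 25.26 and 55.35 CPM in the controls and 18.13 to 35.99 CPM in the hydrogel libraries (median 27.5). Control replicates 1 and 3 were above every hydrogel library and control replicate 2 was inside their range. Among hydrogel groups the means ran from 29.2 ± 1.64 CPM in 8.4/bFGF to 21.4 ± 3.53 CPM in 8.4/aFGF. The 3 bFGF groups had the highest means of the 6, although each group overlapped the next.

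Inhba encodes the subunit of activin A, a TGF-beta family ligand that is induced early in wounds. It was the most variable member, at 18.92, 240.5 and 17.67 CPM in the controls. The hydrogel values were 371.5, 101.9 and 68.30 CPM in 6.4/aFGF, 92.32, 62.53 and 108.1 CPM in 7.4/aFGF, 331.9, 104.5 and 130.5 CPM in 8.4/aFGF, 131.0, 192.9 and 109.8 CPM in 6.4/bFGF, 49.88, 51.24 and 164.2 CPM in 7.4/bFGF, and 40.42, 142.5 and 81.24 CPM in 8.4/bFGF. Control replicates 1 and 3 were below all 18 hydrogel libraries, whereas control replicate 2 was above 16 of them. Single libraries of 6.4/aFGF, 8.4/aFGF and 7.4/bFGF were more than 2 times as high as the others of their group, and no neighbouring groups in the order of means were separated.

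Tgfbr1, the type I receptor that phosphorylates Smad2 and Smad3, was 54.47, 70.97 and 44.75 CPM in the controls and 59.60 to 77.12 CPM in the hydrogel libraries. Control replicates 1 and 3 were the lowest 2 of the 21 libraries. The 3 libraries of 6.4/aFGF had nearly the same value (74.41, 74.53 and 74.26 CPM), and those of 6.4/bFGF were all lower (61.91, 63.48 and 67.41 CPM). Tgfbr2, the type II receptor that binds the ligand, was 533.4, 456.8 and 674.8 CPM in the controls and 334.7 to 666.7 CPM in the hydrogel libraries, and its 7 group means lay between 497.9 ± 142.9 CPM in 8.4/bFGF and 567.1 ± 93.4 CPM in 7.4/bFGF. The SD of each group exceeded the whole range of these means.

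Smad3, the mediator of the TGF-beta and activin signal, was 45.89, 40.48 and 37.41 CPM in the controls and 33.23 to 57.39 CPM in the hydrogel libraries, and both of these limits were libraries of 7.4/aFGF. Smad7, the inhibitory Smad, was 9.71, 43.67 and 12.68 CPM in the controls and 16.82 to 38.86 CPM in the hydrogel libraries (median 22.6). Control replicates 1 and 3 were below every hydrogel library and control replicate 2 was above every one, so the control mean of 22.0 ± 18.8 CPM fell inside the range of the hydrogel group means.

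Ccn2 encodes a matricellular protein made by fibroblasts and endothelial cells that acts with TGF-beta in matrix production. It was 43.44, 71.35 and 54.32 CPM in control, 167.7, 140.7 and 132.9 CPM in 6.4/aFGF, 50.59, 100.5 and 105.9 CPM in 7.4/aFGF, and 139.0, 95.10 and 77.38 CPM in 8.4/aFGF. With bFGF it was 132.3, 199.7 and 96.52 CPM at pH 6.4, 69.69, 67.09 and 78.65 CPM at pH 7.4, and 81.61, 64.23 and 159.8 CPM at pH 8.4. Both pH 6.4 groups had the highest means (147.1 ± 18.3 and 142.9 ± 52.4 CPM) and control had the lowest (56.4 ± 14.1 CPM), while neighbours in the order of means overlapped.

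Klf10, an early TGF-beta response gene that encodes a zinc finger repressor, had the smallest p of the members in the test over all groups. It was 93.02, 78.08 and 73.28 CPM in 7.4/aFGF and 65.41, 56.63 and 58.87 CPM in 8.4/aFGF, and the 2 groups did not overlap. The remaining values were 52.27, 37.46 and 38.99 CPM in 6.4/aFGF, 45.98, 53.61 and 52.97 CPM in 6.4/bFGF, 59.62, 48.46 and 43.08 CPM in 7.4/bFGF, 37.97, 48.16 and 50.81 CPM in 8.4/bFGF, and 45.44, 61.65 and 39.14 CPM in control. The 5 groups with lower means, control included, overlapped one another. All 3 libraries of 7.4/aFGF were above the other 18, while 8.4/aFGF overlapped 7.4/bFGF and control. The highest value was that of 7.4/aFGF replicate 1, the library with the most T and NK cell transcripts, and the part of these in the level of Klf10 was not tested.

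The 7 groups were first tested together, for a difference of any kind. With edgeR's quasi-likelihood test, 0 of the 10 members passed an adjusted p of 0.05, against 0.114% of the 15811 genes tested. Klf10 (adjusted p = 0.0882) and Ccn2 (adjusted p = 0.157) were the 2 members with an unadjusted p under 0.05, a share close to the 19.3% of all genes. The same 2 passed with DESeq2 (adjusted p = 0.00032 for Klf10 and 0.00926 for Ccn2), which passed 12.7% of all genes there. Without control replicate 2, edgeR's quasi-likelihood test passed Klf10 (adjusted p = 0.0198) and Tgfbr1 (adjusted p = 0.0364), beside 5.38% of all genes. Without 7.4/aFGF replicate 1 the adjusted p of Klf10 was 0.207.

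Wounds with a hydrogel were compared with wounds without one. Over the 6 hydrogel groups, Tgfb3 was lower than in control by a log2 fold change of -0.59 (SE 0.18), and Ccn2 and Tgfbr1 were higher by 0.89 (SE 0.28) and 0.29 (SE 0.10). None of these passed edgeR's quasi-likelihood test, with adjusted p of 0.163 for Tgfb3, 0.170 for Ccn2 and 0.178 for Tgfbr1. A gene was called where its adjusted p was under 0.05 and its fold change exceeded 0.58 on the log2 scale, which 0 of 10 members and 0.00632% of all genes met. At an unadjusted p under 0.05 there were 3 of 10 members, against 16.7% of all genes. DESeq2 called 1 member, Ccn2 (adjusted p = 0.0397), beside 1.12% of all genes. In exact two-sided permutation tests of each member alone, the difference in mean log2 CPM gave p = 0.0218 for Tgfb3, 0.00977 for Tgfbr1 and 0.0143 for Ccn2, and 0.0617 for Inhba. The labels were permuted over all 21 libraries, without regard to which of the 6 hydrogel groups a library came from. These p-values are not adjusted for the 10 members, and the number under 0.05 went from 3 to 0, 5 and 1 without control replicate 1, 2 and 3. No member was separated from control in all libraries, against 0.607% of all genes.

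The calls against control depended on control replicate 2. Without it, edgeR's quasi-likelihood test called 3 of 10 members. Inhba was higher in the hydrogel groups by 2.73 (SE 0.75, adjusted p = 0.0315), Smad7 was higher by 1.08 (SE 0.27, adjusted p = 0.0225) and Tgfb3 was lower, at -0.84 (SE 0.17, adjusted p = 0.0113). Tgfbr1 passed the adjusted p (0.00627) but not the fold threshold, at 0.48 (SE 0.09), and Ccn2 was 1.09 higher (SE 0.34, adjusted p = 0.0527). In that fit 7.4% of all genes were called, so many genes besides the members moved with this library. With all 21 libraries the fold changes of Inhba and Smad7 were 0.42 (SE 0.69, adjusted p = 0.794) and 0.12 (SE 0.32, adjusted p = 0.878). Tgfb1 and Tgfb2, which passed in neither fit, changed sign, from -0.21 to 0.09 and from -0.02 to 0.06. The estimates also depended on control replicate 3. Without that library instead, Tgfb3 was lower at -0.25 and Tgfbr1 was higher by 0.16. Their adjusted p by edgeR's quasi-likelihood test were then 0.747 and 0.694, and that of Ccn2 was 0.591.

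**Figure D2:**
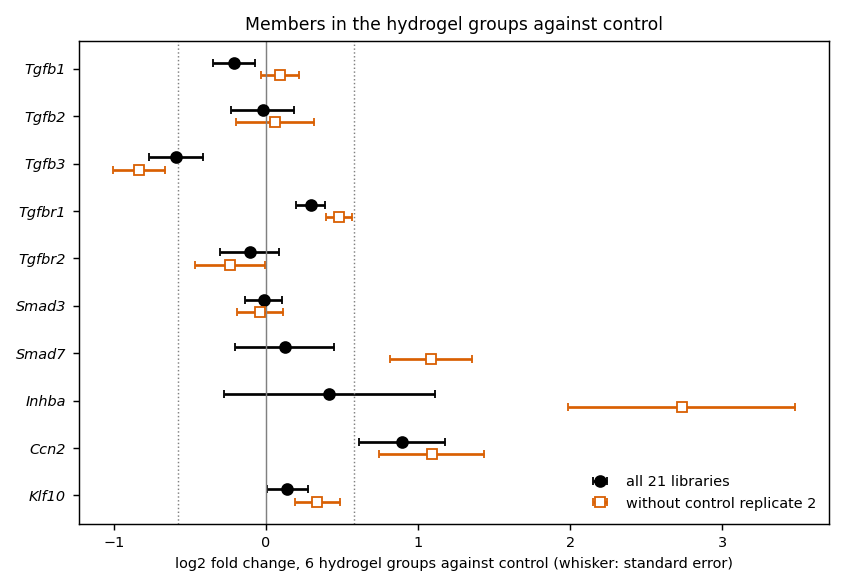
Log2 fold change (edgeR) of each member in the 6 hydrogel groups against control, with all 21 libraries and without control replicate 2, with whiskers of 1 SE and dotted lines at a fold change of 0.58 either way. Inhba moves from 0.42 to 2.73 and Smad7 from 0.12 to 1.08 when that library is left out. Smad3 and Tgfb2 lie near 0 in both fits, and Tgfbr2 lies at -0.24 (SE 0.23) in the fit without that library.

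Neutrophil genes moved with the same libraries. The 7 genes of that list (S100a8, S100a9, Ly6g, Csf3r, Cxcr2, Mmp8 and Retnlg) summed to 1177, 7948 and 700.4 CPM in the controls and to 2917 to 12130 CPM in the hydrogel libraries, and none was at 0 in any library. S100a8, which encodes a calgranulin abundant in neutrophils, was 436.4, 2765 and 293.4 CPM in the controls and 1126 to 4350 CPM with hydrogel. Control replicates 1 and 3 were below every hydrogel library, as for Inhba and Smad7. Control replicate 2 was inside the hydrogel range for the neutrophil genes and Inhba and above it for Smad7. Whether the neutrophil content accounts for the differences in Inhba, Smad7, Tgfb3 and Tgfbr1 was not tested. The summed fibroblast genes did not separate the groups in this way, at 29990 to 35070 CPM in the controls and 22570 to 48730 CPM with hydrogel. As a mean of log2 CPM, which gives each gene equal weight, the same list was 10.31, 9.999 and 10.41 in the controls. It was 9.617 to 10.4 with hydrogel, so control replicates 1 and 3 lay near or above the top of that range. The part of fibroblast content was not tested either.

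The pH of the scaffold was compared at each growth factor, with pH 7.4 as the neutral reference. With aFGF, Klf10 was lower at pH 6.4 than at pH 7.4 by a log2 fold change of -0.92 (SE 0.17) and Ccn2 was higher by 0.79 (SE 0.28), and the 3 libraries of each group were separated for both genes. Neither passed edgeR's quasi-likelihood test (adjusted p = 0.832 for both). These were 2 of 10 members at an unadjusted p under 0.05, against 4.99% of all genes, and 2 of 10 separated, against 11.1%. No gene of the 15019 tested was called. DESeq2 called Klf10 (adjusted p = 0.0134), with 0.121% of all genes.

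With bFGF, Ccn2 was higher at pH 6.4 than at pH 7.4 by 1.00 (SE 0.26) and Tgfb2 was higher by 0.79 (SE 0.24), each with separated libraries and an adjusted p of 0.542 by edgeR's quasi-likelihood test. These were again 2 of 10 members at an unadjusted p under 0.05, against 8.89% of all genes, and 2 of 10 separated, against 15.4%. DESeq2 called Ccn2 (adjusted p = 0.0440), with 0.748% of all genes. Klf10 overlapped between these groups with bFGF, at 45.98 to 53.61 CPM for pH 6.4 and 43.08 to 59.62 CPM for pH 7.4. The interaction, the difference between the pH effect with aFGF and with bFGF, was -0.95 for Klf10 (SE 0.23, adjusted p = 0.765 by edgeR's quasi-likelihood test). It was the 1 of 10 members with an unadjusted p under 0.05 there, against 6.09% of all genes. Leaving out 7.4/bFGF replicate 3, which had the highest Inhba value of its group, brought Inhba to 1.54 higher at pH 6.4 with bFGF (SE 0.25, adjusted p = 0.0467), beside 1.83% of all genes called.

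At pH 8.4 against pH 7.4 with aFGF, Klf10 was lower at -0.44 (SE 0.13) with separated libraries and Inhba was higher by 1.11 (SE 0.46) with overlapping ones, both with an adjusted p of 1.00 by edgeR's quasi-likelihood test. They were 2 of 10 members at an unadjusted p under 0.05, against 3.01% of all genes, and Klf10 was 1 of 10 separated, against 8.24%. With bFGF no member reached an unadjusted p under 0.05, against 5.72% of all genes, and 1 of 10 was separated, Tgfb2, which was 0.38 higher (SE 0.21, adjusted p = 0.864 by edgeR's quasi-likelihood test), against 11.6% of all genes. No member had an unadjusted p under 0.05 for the interaction, against 4.73%.

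Averaging over both growth factors, a comparison added after these values had been seen, Ccn2 was higher at pH 6.4 than at pH 7.4 by 0.89 (SE 0.24), Tgfb2 was higher by 0.47 (SE 0.19) and Klf10 was lower at -0.45 (SE 0.12). Ccn2 was 145.0 ± 35.2 CPM in the 6 libraries of pH 6.4, 102.9 ± 37.96 CPM at pH 8.4 and 78.7 ± 21.1 CPM at pH 7.4. None of the 3 passed edgeR's quasi-likelihood test (adjusted p of 0.376, 0.433 and 0.376). They were 3 of 10 members at an unadjusted p under 0.05, against 10.2% of all genes. DESeq2 called Ccn2 (adjusted p = 0.0412), with 0.0662% of the 6044 genes its default filter kept. Between pH 8.4 and 7.4 only Klf10 had an unadjusted p under 0.05 (-0.29, SE 0.12, adjusted p = 1.00 by edgeR's quasi-likelihood test), against 4.96% of all genes, and between pH 6.4 and 8.4 no member did, against 4.21%.

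The 6.4/aFGF wounds were also compared with control alone. Ccn2 was higher by 1.40 (SE 0.21), with 132.9 to 167.7 CPM against 43.44 to 71.35 CPM and no overlap, as for 14.4% of all genes. Tgfbr1 did not overlap either, at 11.25 to 11.73 FPKM in 6.4/aFGF against 7.41 to 10.37 FPKM in control. Ccn2 was the 1 of 10 members with an unadjusted p under 0.05, against 8.01% of all genes, and its adjusted p was 0.607 by edgeR's quasi-likelihood test. DESeq2 called it (adjusted p = 3.34e-05), with 0.644% of all genes. The control libraries are those of the comparison over all hydrogel groups.

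Across the growth factors, Klf10 was higher with aFGF than with bFGF over all pH by 0.30 (SE 0.10, adjusted p = 0.0665 by edgeR's quasi-likelihood test), at 37.46 to 93.02 CPM (median 58.9) in the 9 aFGF libraries and 37.97 to 59.62 CPM (median 48.5) in the 9 bFGF libraries. At pH 6.4 alone the mean went the other way, at 10.51 ± 1.83 FPKM in 6.4/aFGF against 12.49 ± 0.63 FPKM in 6.4/bFGF. The libraries of these groups overlapped. Klf10 was the 1 of 10 members with an unadjusted p under 0.05, against 28% of all genes, and 0 of 10 were called by edgeR and by DESeq2, against 3.2% of all genes by edgeR. The fold changes of the other 9 members ran from -0.21 for Tgfb3 to 0.48 for Inhba. In the exact permutation test of single members, Tgfbr1 had p = 0.0141 for a difference in mean log2 CPM of 0.12, with 72.9 ± 3.79 CPM for aFGF and 66.9 ± 5.16 CPM for bFGF, and the other 9 had p of 0.0946 or more. The number of members under 0.05 became 2 without 6.4/aFGF replicate 2, 6.4/aFGF replicate 3 or 6.4/bFGF replicate 3.

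Within each pH, some members separated aFGF from bFGF without passing the adjusted test. At pH 6.4, Tgfbr1 was higher with aFGF by 0.22 (SE 0.09, adjusted p = 0.598 by edgeR's quasi-likelihood test), 1 of 10 members against 8.16% of all genes at an unadjusted p under 0.05. At pH 7.4, Klf10 was higher by 0.70 (SE 0.16, adjusted p = 0.351) and Tgfb2 by 0.57 (SE 0.21, adjusted p = 0.372), 2 of 10 against 13% of all genes, and DESeq2 called Klf10 (adjusted p = 0.0246), with 1.67% of all genes. At pH 8.4, Tgfb1 was higher by 0.35 (SE 0.11, adjusted p = 0.159), Klf10 by 0.42 (SE 0.14, adjusted p = 0.168) and Tgfb3 was lower at -0.43 (SE 0.15, adjusted p = 0.186), 3 of 10 against 21.1%. At each pH edgeR called 0 of 10 members, against 0.00665% of all genes at pH 8.4. All of these members were separated in CPM, as were 14.9%, 20.9% and 27.7% of all genes at pH 6.4, 7.4 and 8.4. In FPKM, which has no TMM scaling, Tgfb1 overlapped at pH 8.4, at 72.62 to 83.91 with aFGF and 61.09 to 73.41 with bFGF.

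The wider pathway was read from 57 further genes in 6 lists, of which all were tested. Against control, 0 of 57 were called by edgeR and 8 had an unadjusted p under 0.05 (5 higher, 3 lower), a share no higher than the 16.7% of all genes. DESeq2 called 2, Cdkn2b and Lox, beside 1.12% of all genes. The median log2 fold change of the 57 genes was 0.10, against -0.02 over all genes. The 3 with the smallest p were the cell cycle inhibitor Cdkn2b (-0.79, SE 0.18, adjusted p = 0.103 by edgeR's quasi-likelihood test), the collagen crosslinking enzyme Lox (0.86, SE 0.24, adjusted p = 0.138) and the matricellular protein Postn (-0.90, SE 0.28, adjusted p = 0.167). Cdkn2b was 4.78 to 6.07 CPM in the controls and 1.81 to 5.01 CPM with hydrogel, and Lox was 440.1, 885.4 and 354.4 CPM in the controls and 647.6 to 1493 CPM with hydrogel.

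Control replicate 2 decided this count as well. Without it, 11 of the 57 genes were called by edgeR's quasi-likelihood test, against the 7.4% of all genes given above. Those that rose included the latent TGF-beta activator Thbs1 (3.14, SE 0.89, adjusted p = 0.0358), and Tnc, Snai1, Lox, Ltbp2, Skil, Acvr1b and Furin, with fold changes of 0.69 to 1.88. Postn (-1.10) and Cdkn2b (-0.89) fell. Thbs1 was 333.5, 3055 and 211.8 CPM in the controls and 518.9 to 7017 CPM with hydrogel. Like Inhba and Smad7, Thbs1 was low in 2 controls and high in control replicate 2.

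Between aFGF and bFGF over all pH, 6 of the 57 genes were called by edgeR's quasi-likelihood test, against 3.2% of all genes, and 18 had an unadjusted p under 0.05 (5 higher with aFGF, 13 lower), against 28%. Ltbp2, a matrix protein of the latent TGF-beta binding family, was lower with aFGF at -1.03 (SE 0.21, adjusted p = 0.00922), with 49.75 to 150.6 CPM for aFGF and 124.9 to 256.2 CPM for bFGF. Fst, the secreted antagonist that binds activin, was higher at 1.35 (SE 0.30, adjusted p = 0.0132), with 42.10 to 258.7 CPM (median 128.1) for aFGF and 34.02 to 63.90 CPM (median 45.8) for bFGF. Replicate 3 of 7.4/aFGF and of 8.4/aFGF were the aFGF libraries inside the bFGF range, and replicate 2 of 6.4/aFGF was just inside it. Lrrc32, which anchors latent TGF-beta on cell surfaces, was also higher with aFGF (0.65, SE 0.18, adjusted p = 0.0294), at 107.4 to 198.6 CPM against 52.16 to 120.7 CPM. Of the targets, Cdkn2b (-0.65, SE 0.15, adjusted p = 0.0146) and the NADPH oxidase gene Nox4 (-1.13, SE 0.32, adjusted p = 0.0363) were lower with aFGF, at medians of 2.52 against 3.90 CPM and 7.72 against 18.9 CPM. The ranges overlapped for each of these 5 genes. Ltbp2 and Fst were called under all 31 alternatives. The call of Nox4 ended in 16 of the 31, which include the replicate block (adjusted p = 0.0577) and each of the 3 limma settings. That of Lrrc32 ended in 10 and that of Cdkn2b in 3, with adjusted p of 0.0528 and 0.0554 without the 3 libraries that carried transcripts of other tissues. The count of 6 called genes became 3 without replicate 3 of 6.4/aFGF, without replicate 1 of 6.4/bFGF and without either of the first 2 replicates of 7.4/bFGF.

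**Figure D3:**
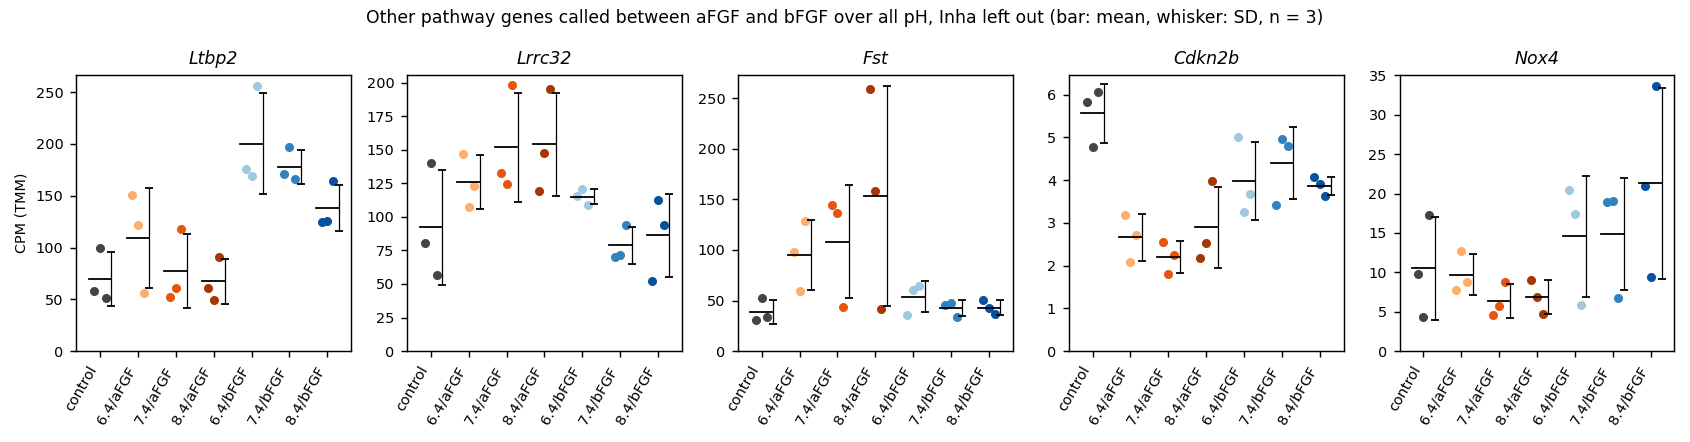
CPM (TMM-scaled, linear axes from 0) of the 5 further pathway genes called between aFGF and bFGF, Inha left out, by group, with points for libraries, bars for the group mean and whiskers for the SD (n = 3). The means of the bFGF groups lie above the aFGF groups for Ltbp2, Cdkn2b and Nox4 and below them for Fst and Lrrc32.

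The sixth gene called, the inhibin subunit Inha, rested on a single library. It was 160.6 CPM in 8.4/bFGF replicate 2, which also carried ovary and oviduct transcripts (284.4 CPM in sum for 7 genes), and at most 3.96 CPM in the other 20 libraries. Its log2 fold change was -2.19 (SE 0.60, adjusted p = 0.0315 by edgeR's quasi-likelihood test) with that library and -0.77 (adjusted p = 0.0678) without it. Inha was also the 1 gene of the 57 that passed the test of any difference among the 7 groups (adjusted p = 0.0477), followed by Ltbp2 (adjusted p = 0.0893) and Cdkn2b (adjusted p = 0.0912), and that count of 1 ranged from 0 to 5 on leaving out a library, with 5 without control replicate 2 and 3 without 8.4/aFGF replicate 3. No gene of the 57 was called by edgeR between pH 6.4 and 7.4 over both growth factors. The 6 with an unadjusted p under 0.05 were a share near the 10.2% of all genes, and all 6 were higher at pH 6.4, against 5.57% of all genes in that direction. The 3 with the smallest p were Cthrc1 (0.65, SE 0.22), which encodes a secreted protein of wound fibroblasts, the type I receptor gene Acvr1 (0.21, SE 0.07) and the collagen gene Col1a1 (0.52, SE 0.19), with adjusted p of 0.398, 0.403 and 0.404 by edgeR's quasi-likelihood test.

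The levels of the members were then compared with each other across the 21 libraries. Of the 45 pairs, 10 had an adjusted p under 0.05 for Pearson's r of log2 CPM (permutation test with 100000 resamples, Benjamini-Hochberg over the 45 pairs), and 30 of the 45 values of r were positive. Smad3 and Klf10 were in none of the 10 pairs. Smad7 rose with Inhba (r = 0.766, rho = 0.743, adjusted p = 0.0054 for r by permutation), and r was 0.664 without the 2 libraries farthest from the median of Smad7. The same r was 0.786 for deviations from the group means, and 0.519 without control replicate 2. Smad7 also rose with Tgfb1 (r = 0.671, rho = 0.752, permutation adjusted p = 0.0128), with 0.611 without the 2 farthest libraries and 0.867 within groups, and fell with rising Tgfb3 (r = -0.672, rho = -0.595, permutation adjusted p = 0.0128), with -0.631 and -0.708. Without control replicate 2 these 2 values within groups were 0.658 and -0.490.

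Ccn2 rose with Tgfb2 (r = 0.583, rho = 0.603, permutation adjusted p = 0.0329), with 0.570 without the 2 farthest libraries and 0.601 within groups. Its relation to Inhba (r = 0.576, rho = 0.458, permutation adjusted p = 0.0329) was weaker without the 2 farthest libraries (0.363) and within groups (0.383). Without control replicate 2, r of Ccn2 was 0.612 with Tgfb2 and 0.645 with Inhba (permutation adjusted p = 0.0447 and 0.022). The values within groups were then 0.585 and 0.287. The relation of Tgfbr1 to Inhba (r = 0.576, rho = 0.206, permutation adjusted p = 0.0329) rested on 2 libraries, since r was 0.0643 without them. The 4 further pairs with an adjusted p under 0.05 were Tgfb1 with Inhba (r = 0.582, rho = 0.717, 0.521 without the 2 farthest libraries), Tgfb3 with Tgfbr1 (-0.702, -0.444 and -0.411), Tgfb3 with Inhba (-0.594, -0.494 and -0.441) and Tgfbr2 with Smad7 (-0.547, -0.655 and -0.602), with permutation adjusted p of 0.0329, 0.0128, 0.0329 and 0.0470 for r. Within groups, r of these 4 pairs in the same order was 0.817, -0.669, -0.48 and -0.559. Without control replicate 2 the values within groups were 0.603, -0.43, -0.109 and -0.609. The permutation adjusted p for r without that library were 0.05, 0.0193, 0.0447 and 0.0552.

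The members were set against the mean log2 CPM of 13 lists of cell type genes, which gave 130 pairs, of which 11 had an adjusted p under 0.05. The neutrophil list took part in 5 of them. It rose with Inhba (r = 0.800, rho = 0.747, permutation adjusted p = 0.00195), with 0.603 without the 2 farthest libraries and 0.834 within groups. It rose with Smad7 (r = 0.751, rho = 0.688, permutation adjusted p = 0.00487), with 0.553 and 0.801, and fell with rising Tgfb3 (r = -0.822, rho = -0.683, permutation adjusted p = 0.00195), with -0.602 and -0.757. It also fell with rising Tgfbr2 (r = -0.624, rho = -0.730, permutation adjusted p = 0.0251), with -0.694 and -0.763. Its relation to Tgfbr1 (r = 0.728, rho = 0.384, permutation adjusted p = 0.0182) rested on the 2 farthest libraries, since r was 0.193 without them. The SD of the neutrophil score was 2.14 in control and 0.38 to 1.03 in the hydrogel groups, so the controls weigh heavily in the values within groups. Those values were not computed without control replicate 2.

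**Figure D4:**
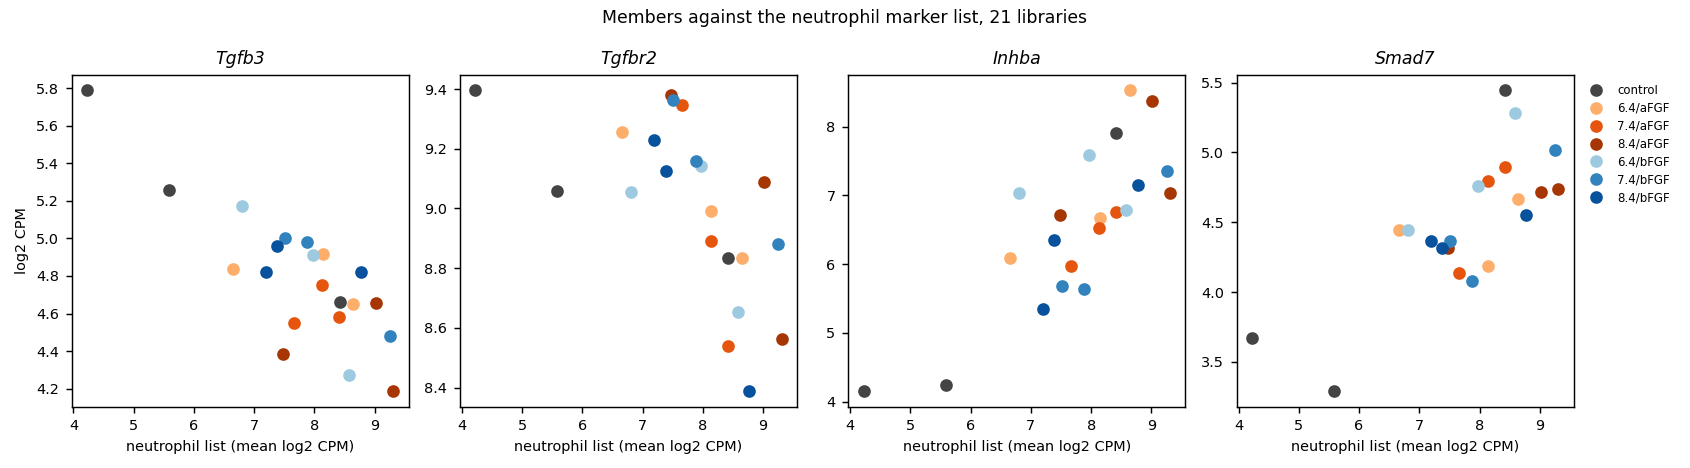
Log2 CPM of members (vertical axes) against the mean log2 CPM of the 7 neutrophil genes (horizontal axes) in the 21 libraries, coloured by group. Inhba and Smad7 rise and Tgfb3 and Tgfbr2 fall along the axis, and control replicates 1 and 3 lie at its low end (5.59 and 4.22) with control replicate 2 at 8.42.

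Fibroblast and macrophage genes went with other members. The fibroblast list rose with Tgfb3 (r = 0.711, rho = 0.765, permutation adjusted p = 0.00487), with 0.715 without the 2 farthest libraries and 0.685 within groups, and with Tgfbr2 (r = 0.688, rho = 0.639, permutation adjusted p = 0.0132), with 0.664 and 0.833. Tgfbr2 also rose with the macrophage list (r = 0.683, rho = 0.700, permutation adjusted p = 0.0122), with 0.516 and 0.779. The platelet list fell with rising Tgfb3 (r = -0.641, rho = -0.592, permutation adjusted p = 0.0217), with -0.732 and -0.474, and rose with Inhba (r = 0.626, rho = 0.506, permutation adjusted p = 0.0299), with 0.595 and 0.420. The ovary and oviduct list fell with rising Tgfbr2 (r = -0.567, rho = -0.594, permutation adjusted p = 0.0182), with -0.302 without the 2 farthest libraries and -0.601 within groups. This list was near the floor outside 8.4/bFGF replicate 2, with a score of 3.73 there and at most -0.852 elsewhere. Up to 3 of its 7 genes had 0 counts in the other libraries. No list had an adjusted p under 0.05 with Ccn2, Klf10, Tgfb1, Tgfb2 or Smad3. These lists share libraries, and within a library all levels share one scaling.

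The genes whose log2 CPM was most like that of each member over the 21 libraries were taken as the 3 with the highest r. They were Pgf (0.942), the glucose transporter gene Slc2a1 (0.935) and Bhlhe40 (0.922) for Smad7, and Chst11 (0.931), Ankrd33b (0.914) and the chemokine gene Cxcl3 (0.913) for Inhba. For Tgfb3 they were the collagen VI genes Col6a1 (0.874) and Col6a2 (0.863) and Fam171b (0.847), of which Col6a1 is also in the fibroblast list. Tgfbr2 went with Lrrn4cl (0.943), Gabra3 (0.920) and Cd34 (0.908), Tgfbr1 with Map3k7 (0.859), Sh2d5 (0.854) and Foxd4 (0.831), and Tgfb1 with Arl4c (0.899), Tmem243 (0.875) and Gnl1 (0.870). For the targets they were Cdr2 (0.878), Tmem252 (0.831) and Rab23 (0.820) for Ccn2, and Prr14l (0.873), Phrf1 (0.846) and Rufy3 (0.837) for Klf10. The values were lower for Tgfb2, with Plat (0.764), Csrp1 (0.750) and Dcbld2 (0.741), and for Smad3, with Rasgrf1 (0.784), Tmem67 (0.756) and Atg16l2 (0.718).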

How the data were processed

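RNA was extracted with TRIzol from Day 4 wounds and sequenced from stranded mRNA libraries (TruSeq). For each library the authors deposited 2 tables, unnormalized read counts by gene and FPKM values. The FPKM values equal the count divided by a length per gene and by the library total, within a spread of 9.85e-05%. The submitters' processing notes name the build GRCm39. The aligner and counter are not given in the sources used here, nor which of the 2 wounds of a mouse was sequenced. All 10 member symbols were found, Ctgf as Ccn2.

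Counts were analysed with edgeR 4.0.16 in R 4.3.3 (TMM, default filter by group, prior count of 2, quasi-likelihood test, Benjamini-Hochberg over all genes tested). The filter kept 15811 genes with all libraries, and all members in each comparison. A call is an adjusted p under 0.05 with a log2 fold change beyond 0.58, or the adjusted p alone in the test of any difference. Comparisons of 2 groups used their libraries, and the others all 21 libraries or, for interactions, 12. Single members were also tested by exact permutation with numpy 2.4.6, with labels permuted freely over the libraries of a comparison. The members, the 57 further pathway genes and the 13 cell type lists were chosen with earlier results of these data known. All members are named, then every called pathway gene or the 3 with the smallest p, except 1 gene that is not reported here. The genes shown by library in the paragraphs on control replicate 2 were named after their values were seen. Alternatives were DESeq2 1.42.0, limma 3.58.1 on log2(FPKM + 1) and log2(FPKM + 0.1), other filters and scaling, a replicate block and leaving out libraries. The scripts were tested on simulated data.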

Additional observations from a re-analysis of the deposited data

How the results depend on the processing

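None of the fold changes named with an unadjusted p under 0.05 changed direction under any alternative run on them, while Tgfb1 and Tgfb2 in hydrogels against control, whose p was above 0.05, changed sign without control replicate 2. With edgeR, 0 members were called in every comparison under RLE scaling, without a filter, with a minimum of 10 counts in each library and with the replicate block, and limma on FPKM called 0. DESeq2 with default settings called 2 members for any difference among the 7 groups and 1 in each of hydrogels against control, 6.4/aFGF against 7.4/aFGF, 6.4/bFGF against 7.4/bFGF, 7.4/aFGF against 7.4/bFGF, 6.4/aFGF against control and pH 6.4 against 7.4 over both growth factors. Leaving out 1 library gave 0 to 2 members for any difference, 0 to 3 for hydrogels against control and 0 to 1 for 6.4/bFGF against 7.4/bFGF. By permutation, 3 members had p under 0.05 for hydrogels against control (0 to 5 on leaving out a library) and 1 for aFGF against bFGF (1 to 2). Of the other pathway genes, any difference called 1, which became 6 with DESeq2, 0 with no filter, the replicate block, all 3 limma settings and without the 3 libraries that carried transcripts of other tissues, and 0 to 5 on leaving out a library. Hydrogels against control called 0, which became 2 with DESeq2 and 0 to 11 on leaving out a library. The 6 called between aFGF and bFGF became 3 with limma on log2(FPKM + 1), filtered or not, 3 without those 3 libraries and 3 to 7 on leaving out a library. The pairs of members with an adjusted p under 0.05 numbered 10, and 9 to 12 under the alternatives. The cause of these changes was not tested.

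Same-numbered libraries deviated together no more than others (mean r of -0.0163 against 0.00696), and 5 of 21 libraries were closest to their own number. The labels say only that the replicates are biological, so whether a number stands for a batch is not known. With the replicate block, 0 members were called in each comparison and 4 of the 57 pathway genes between aFGF and bFGF. With 3 libraries a group and a within-group SD of 1.14 for Inhba on the log2 scale, modest differences of such genes were not detectable. Counts limit little, since each member had at least 368 (Smad7).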
